A study of Homo sapiens with 3 samples.

Results

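The genes described here are the AP-1 subunits and early response transcription factors JUN, JUNB, JUND, FOS, FOSB, FOSL1, FOSL2, ATF3, EGR1 and MYC, chosen by name, 10 of the 25002 genes that could be named on the array. All 10 had a probe, and in all 10 the brightest probe was well above background in both dyes of all 3 arrays, as it was for 15343 named genes. RNA of 2 clones of U87, a glioblastoma cell line of an adult, was compared: U87WT 5 (U87WT), which carries GFP-IGF1R and whose receptor can enter the nucleus, and U87Mut 5 (U87Mut), which carries GFP-IGF1R1025x-1100x-1120x, in which 3 lysines are replaced by arginines and the receptor stays out of the nucleus. Both were kept in medium without serum for 24 h, alone, with 50 nM IGF1, or with 50 nM IGF1 and 0.5 µM OSI906, an inhibitor of the IGF1 and insulin receptors. Each condition was hybridized to 1 array, with U87WT in Cy5 and U87Mut in Cy3 on all 3 arrays. No dye swap, repeat or parental U87 sample was analysed here. Both clones overexpress a receptor from a plasmid beside the one U87 cells make themselves, and each is 1 clone picked after transfection and selection with G418, so the receptor form, the clone and the dye cannot be told apart.

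AP-1 is a dimer of a JUN protein with a FOS protein or a relative such as ATF3, and it binds short DNA motifs in the promoters and enhancers of genes for growth, migration and stress. Growth factor receptors reach it through the MAP kinases: ERK acts on ternary complex factors that switch on FOS and EGR1 within minutes, and JNK phosphorylates JUN. The first transcripts fade within hours, while FOSL1 is known to follow sustained ERK signalling, so that arrays taken after 24 h measure the late state and not the first burst. MYC is the growth-regulating factor that binds E boxes with MAX and drives genes of ribosome production and polyamine synthesis. In glioblastoma FOSL1 is known for its part in the mesenchymal state.

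The promoters of JUN and EGR1 are shown because both genes were brighter in U87WT with OSI906 than with IGF1 alone and because they hold the known sites of the family. Each is the stretch of 250 bases before the annotated start in RefSeq (GRCh38.p14), printed 5′ to 3′ on the strand of the gene, JUN at chr1:58784048-58784297 on the minus strand and EGR1 at chr5:138465229-138465478 on the plus strand. Capitals mark the JUN site TGACATCA, the element through which JUN is known to bind its own promoter, and the CArG boxes of EGR1, which serum response factor binds.
JUN: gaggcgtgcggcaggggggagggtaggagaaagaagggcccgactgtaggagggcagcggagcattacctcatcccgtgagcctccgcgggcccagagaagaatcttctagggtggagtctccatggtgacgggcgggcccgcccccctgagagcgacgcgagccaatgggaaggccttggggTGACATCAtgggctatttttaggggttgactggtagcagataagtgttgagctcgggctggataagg
EGR1: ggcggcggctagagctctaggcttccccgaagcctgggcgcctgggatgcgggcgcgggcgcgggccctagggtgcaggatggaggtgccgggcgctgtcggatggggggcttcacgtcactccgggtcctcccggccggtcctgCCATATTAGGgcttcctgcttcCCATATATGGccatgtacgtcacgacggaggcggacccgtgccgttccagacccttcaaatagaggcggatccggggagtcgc
Both strands were searched for TGACTCA, TGACGTCA, TGACATCA, the CArG box, GCGTGGGCG, GCGGGGGCG and CACGTG. TGACATCA was found in the promoter of JUN and in the first of the promoters of ATF3, TGACGTCA in that of JUND, and 2 CArG boxes in that of EGR1. Of the 35116 promoter windows of the same length, 2.37% held TGACATCA, 1.65% TGACGTCA and 1.16% a CArG box. The windows of FOS, FOSB, JUNB and FOSL2 held none of these motifs. A match is a description of the sequence, and no binding was measured.

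The arrays lay on 1 slide and were scanned together. Median spot brightness over all spots was 33 to 35 in Cy5 and 30.5 to 33.5 in Cy3, against a local background of 21 to 22, and no spot was saturated. The IGF1 array carried the most spots marked as not uniform, 572, against 384 in serum-free medium and 5 with OSI906. None of the spots of the 10 genes was marked. VIM, CD44, NES, TNC and OLIG2 were well above background in every channel, while GFAP and SOX2, which define glial and stem-like cells, were not in any. S100B, another glial marker, was well above background in 2 channels only. The brightest probes of CDH5, EPCAM, PTPRC and RBFOX3, markers of other cell types, were also well above background in all channels, and so was a probe for CDKN2A, a gene that U87 is known to lack. The brightest probe of PECAM1, like CDH5 a marker of endothelium, was well above background in 1 channel only. For IGF1R, the receptor gene that both plasmids carry, U87WT exceeded U87Mut by 0.07, 0.23 and 0.09 on the log2 scale.

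The clone ratio, log2 of U87WT over U87Mut, was called past a limit of 0.5 in either direction, with no test because there is 1 array per condition. The conditions are always given in the order serum-free medium, IGF1, IGF1 with OSI906. In serum-free medium FOSL2 was above the limit, 1 of the 10 genes against 6.37% of all 15343, and FOSL1, ATF3 and MYC were below it, 3 of 10 against 6.12%. With IGF1 the same FOSL1, ATF3 and MYC were below it, 3 of 10 against 4.72%, and none was above it, against 7.33%. With OSI906 FOSL2 and EGR1 were above it, 2 of 10 against 5.74%, and ATF3 and MYC below it, 2 of 10 against 5.66%. The median ratio of the 10 genes was -0.02, -0.27 and -0.08, beside -0.01, 0.02 and -0.01 over all genes. ATF3 and MYC were the members below the limit on all 3 arrays, as were 2.40% of all genes.

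The mean ratio over the 3 arrays was tested with limma, with Benjamini-Hochberg adjustment at 5% over 58174 probes. These arrays are different conditions, so a response to treatment adds to the error of that test. Of the 10 genes, MYC and ATF3 were called lower in U87WT, beside 10.7% of all genes, and none was called higher, beside 11.0%. For FOSL1 the mean was -0.69 (SE 0.19, limma adjusted p = 0.116) and for FOSL2 it was 0.49 (SE 0.24, limma adjusted p = 0.365). An adjusted p above the limit does not show that these genes were alike in the clones. Without the IGF1 array FOSL2 and EGR1 were called as well, and without the OSI906 array ATF3 was no longer called (limma adjusted p = 0.0615). Neither MYC nor ATF3 was called with the signals processed by the scanner software (limma adjusted p = 0.132 and 0.135) or with dyes scaled by medians in place of loess (limma adjusted p = 0.201 and 0.153), where no probe of the array was called.

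**Figure D1:**
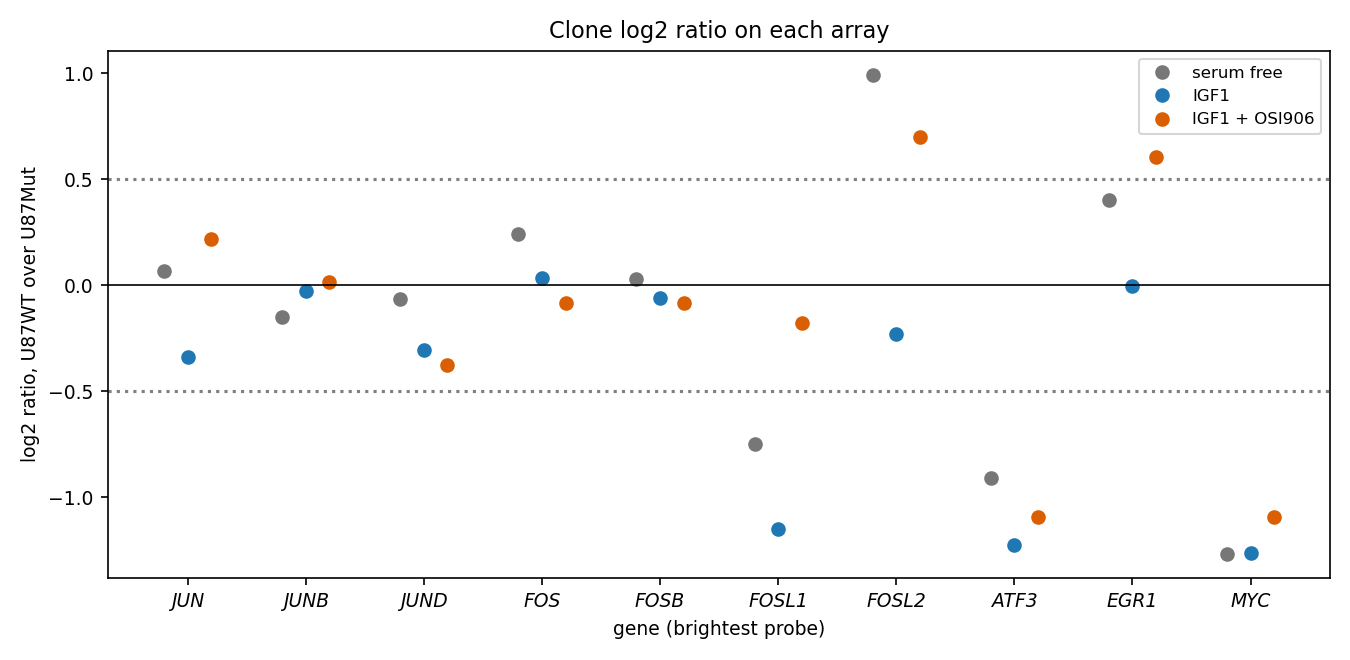
Log2 ratio of U87WT over U87Mut (vertical axis) for the brightest probe of each gene, 1 point per array, colored by condition, with dotted lines at the limits of 0.5 and -0.5. The 3 points of MYC lie between -1.27 and -1.09 and those of ATF3 between -1.23 and -0.91, while FOSL2 runs from 0.99 to -0.23.

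JUN (chromosome 1, bases 58780791 to 58784047), the strongest activating subunit of AP-1, was among the bright genes, with raw brightness of 2419 to 3632 in U87WT and 1971 to 2737 in U87Mut over a local background of 20 to 23. Its normalized log2 brightness in U87WT was 11.27, 11.02 and 11.84, and in U87Mut 11.21, 11.36 and 11.62. The OSI906 array was the brightest for both clones, while the IGF1 array was the dimmest for U87WT and lay between the others for U87Mut. The ratio was 0.07, -0.34 and 0.22, so U87Mut was brighter with IGF1 and U87WT was slightly brighter on the other arrays, with no value past the limit. These directions turned where the dyes were scaled by medians in place of loess, to -0.18 in serum-free medium and 0.16 with IGF1. Before normalization U87WT was the brighter clone on all 3 arrays, at 2734, 2419 and 3632 against 2640.5, 1971 and 2737 in U87Mut. Both clones were lowest with IGF1 there, so the ratio below 0 and the middle place of U87Mut appear after normalization only. OSI906 against IGF1 gave 0.81 in U87WT, 1.75-fold, and 0.26 in U87Mut. The fall of 0.25 in U87WT with IGF1 was under the limit, and it turned to a rise of 0.12 with the same scaling.

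JUNB (chromosome 19, bases 12791486 to 12793315), which often restrains JUN, was dim, with normalized log2 brightness of 6.74, 6.86 and 6.97 in U87WT and 6.89, 6.89 and 6.96 in U87Mut. JUND (chromosome 19, bases 18279694 to 18281622), the subunit that resting cells hold, was at 8.51, 8.38 and 8.39 in U87WT and at 8.57, 8.68 and 8.77 in U87Mut. No ratio or response of JUNB or JUND passed the limit. The ratio of JUND was below 0 on all 3 arrays, at -0.06, -0.31 and -0.38, and its mean of -0.25 had a limma adjusted p of 0.129. Before normalization U87WT was the brighter clone for JUND on the IGF1 array, at 338 against 303.

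FOS (chromosome 14, bases 75278828 to 75282230), the classic early gene, was close to background after 24 h, with raw brightness of 65, 36 and 44 in U87WT and 50, 31 and 47 in U87Mut. The IGF1 array was the lowest in both clones. The normalized difference of IGF1 from serum-free medium was -0.50 in U87WT, on the limit itself, and -0.29 in U87Mut. Since 50 is added to each signal, these differences of a dim gene are held down: with an offset of 0 they were -1.28 and -0.96. FOSB (chromosome 19, bases 45467996 to 45475179) was dimmer still, at 30.5 to 35 in all 6 channels, where differences could hardly be seen, and none of its values passed the limit.

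FOSL1 (chromosome 11, bases 65892049 to 65900545), also known as FRA1, a FOS relative that lasts longer than FOS, stood at 9.70, 9.61 and 10.67 in U87WT and at 10.46, 10.76 and 10.85 in U87Mut. U87WT was lower on every array, but with OSI906 it came close to U87Mut. The ratio was -0.75, -1.15 and -0.18, so U87Mut was 1.68-fold and 2.22-fold brighter on the first arrays and 1.13-fold on the third. The wider gap with IGF1 than in serum-free medium depended on the normalization. With dyes scaled by medians in place of loess the ratio was -1.03, -0.72 and -0.08. The raw brightness was 866.5, 868 and 1562.5 in U87WT and 1553.5, 1322 and 1625.5 in U87Mut. In U87WT the OSI906 array was above the IGF1 array by 1.06, 2.09-fold, and above serum-free medium by 0.96. In U87Mut the same differences were 0.09 and 0.39.

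FOSL2 (chromosome 2, bases 28392858 to 28417317), or FRA2, was the gene of the set whose clones differed most from array to array. Its normalized log2 brightness was 9.99, 9.06 and 10.45 in U87WT and 8.99, 9.29 and 9.76 in U87Mut. The ratio was 0.99, -0.23 and 0.70: U87WT was 1.99-fold brighter in serum-free medium, slightly dimmer with IGF1, and 1.62-fold brighter with OSI906. IGF1 against serum-free medium gave -0.93 in U87WT and 0.29 in U87Mut, and OSI906 against IGF1 gave 1.40, 2.63-fold, and 0.47. The raw brightness was 1067, 569 and 1341 in U87WT and 546, 469 and 760.5 in U87Mut. Before normalization U87WT was thus the brighter clone on all 3 arrays and both clones were lowest with IGF1, so the ratio below 0 and the higher value of U87Mut with IGF1 appear after normalization only. With dyes scaled by medians in place of loess, IGF1 against serum-free medium gave -0.61 in U87WT and -0.03 in U87Mut.

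ATF3 (chromosome 1, bases 212565407 to 212620777), the stress-induced member that pairs with JUN, was higher in U87Mut in every condition. Its brightest probe stood at 10.58, 10.53 and 10.99 in U87WT and at 11.49, 11.76 and 12.09 in U87Mut, so all 3 values of U87Mut were above all 3 of U87WT. U87Mut was 1.88-fold, 2.34-fold and 2.14-fold brighter, with log2 ratios of U87WT over U87Mut of -0.91, -1.23 and -1.10 and a limma mean of -1.08 (SE 0.07, adjusted p = 0.00483). Of the other 3 ATF3 probes, one gave -0.55, -0.68 and -0.56, and one, for the transcript NM_001674, gave -0.25, -1.10 and -0.47. The third gave -0.04, -0.02 and 0.06 and so did not show the difference. The mean over the 4 probes was -0.44, -0.76 and -0.52. OSI906 against serum-free medium gave 0.41 in U87WT and 0.59 in U87Mut on the brightest probe. With dyes scaled by medians in place of loess, the ratio of that probe was -1.16, -0.73 and -0.95, so the gap was narrowest with IGF1 and not widest. Its raw brightness was 1668, 1712.5 and 1994.5 in U87WT and 3226, 2616.5 and 3806.5 in U87Mut.

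EGR1 (chromosome 5, bases 138465479 to 138469303), the zinc finger factor that ERK switches on through the CArG boxes shown above, followed the same order of conditions in both clones. Its raw brightness was 202, 112.5 and 320 in U87WT and 152, 86 and 192 in U87Mut, lowest with IGF1 and highest with OSI906. The normalized log2 values were 7.82, 7.10 and 8.50 in U87WT and 7.42, 7.11 and 7.90 in U87Mut. In the main processing the clones were level on the IGF1 array, with a ratio of -0.00. U87WT was brighter by 0.40 in serum-free medium and by 0.60 with OSI906. The mean of 0.33 had a limma adjusted p of 0.218. Before normalization U87WT was the brighter clone with IGF1 as well, at 112.5 against 86. With dyes scaled by medians in place of loess the ratio was 0.19, 0.18 and 0.63. The gap was then nearly the same in serum-free medium and with IGF1. With the signals processed by the scanner software the ratio was 0.55, -0.21 and 0.76.

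**Figure D2:**
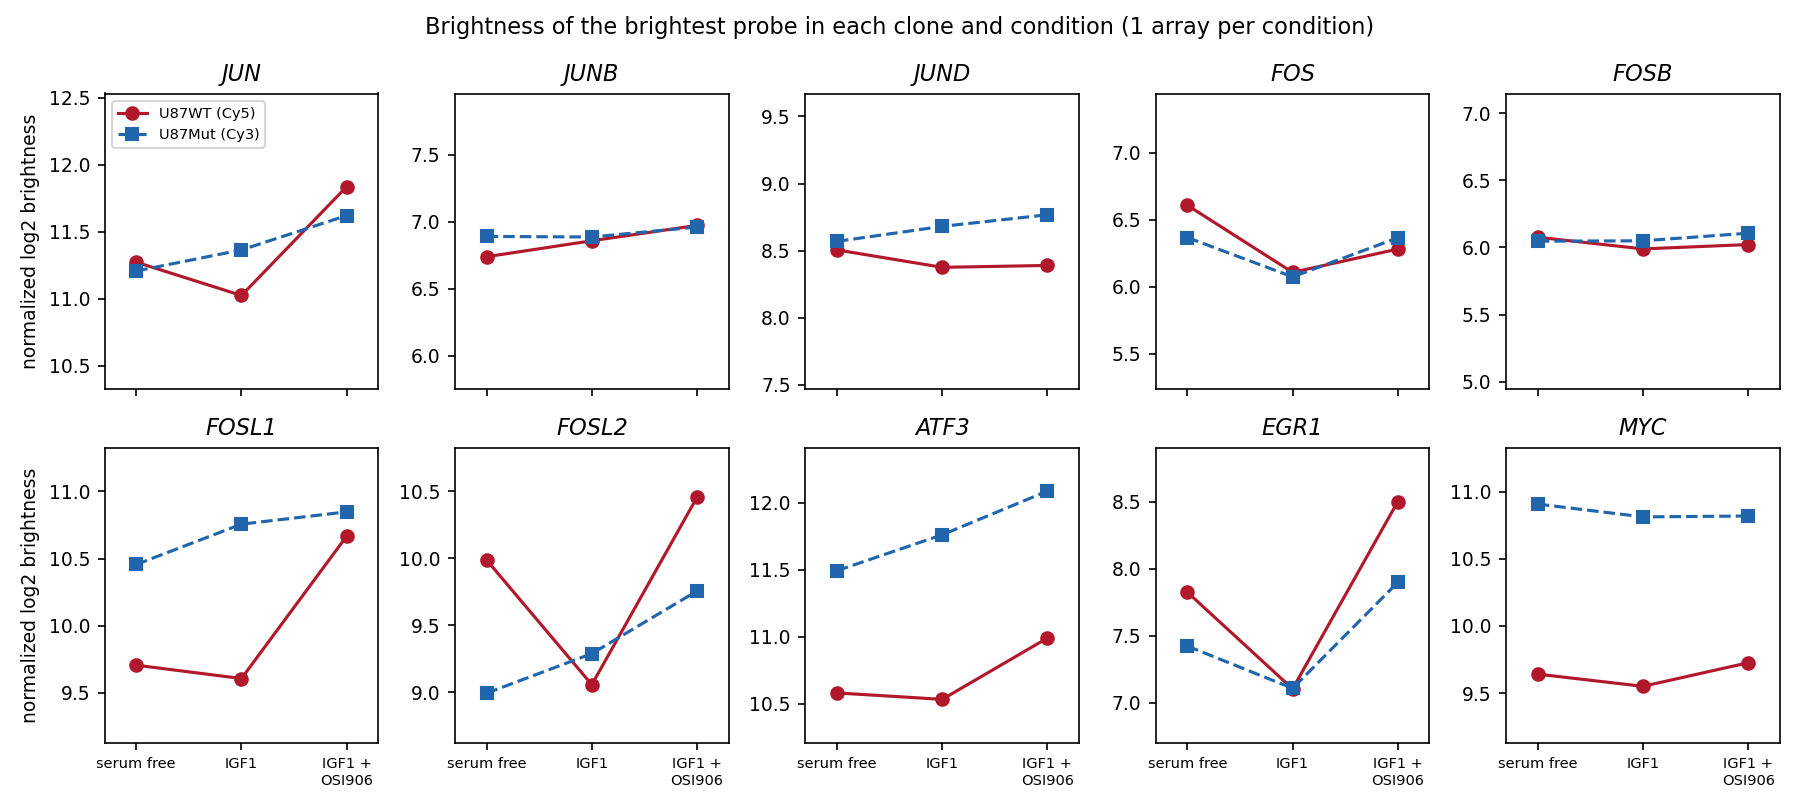
Normalized log2 brightness (vertical axis, a span of the same height in each panel) of the brightest probe of the 10 genes against condition, with circles for U87WT in Cy5 and squares for U87Mut in Cy3, 1 array per condition and no error bars. FOSL2 and EGR1 dip with IGF1 in U87WT, at 9.06 and 7.10, and ATF3 and MYC keep the clones apart on all 3 arrays.

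Responses were read within a clone as the difference of its normalized channel between arrays, with the same limit of 0.5, so that array and condition cannot be told apart. With IGF1 against serum-free medium, EGR1, FOS and FOSL2 were lower in U87WT, 3 of 10 against 2.72% of all genes. EGR1 was lower by 0.72 there, and in U87Mut its difference was -0.31. In U87Mut none of the 10 passed the limit in either direction, against 2.54% of all genes. No member was higher with IGF1 past the limit in either clone at this time. The difference between the clones' responses has no test, and a value past the limit in 1 clone and not in the other does not show that they differ.

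With OSI906 against IGF1, JUN, FOSL1, FOSL2 and EGR1 were higher in U87WT, 4 of 10 against 3.73% of all genes. EGR1 was also higher in U87Mut, by 0.79 against 1.40 in U87WT, 1 of 10 against 2.07%, and 1.13% of all genes were higher past the limit in both clones. With OSI906 against serum-free medium, JUN, FOSL1 and EGR1 were higher in U87WT, 3 of 10 against 2.44%, and FOSL2 and ATF3 in U87Mut, 2 of 10 against 0.684%. The median difference of the 10 genes between OSI906 and IGF1 was 0.32 in U87WT and 0.17 in U87Mut, beside -0.02 and 0.02 over all genes. OSI906 against IGF1 gave values above 0 for all 10 genes in both clones, with the smallest 0.01 for JUND in U87WT and 0.01 for MYC in U87Mut. Under the alternatives 8 to 10 of the 10 were above 0 in U87WT and 7 to 10 in U87Mut, and those below 0 were among JUND, FOSB, FOSL1 and MYC. The comparisons share arrays, so they do not bear on each other as separate evidence. As a measure of spread, the SD over 27680 bright probes of the difference between the OSI906 and serum-free arrays was 0.23 in U87WT and 0.17 in U87Mut. That measure leaves out the IGF1 array, whose spots of the same probe differed most: over 277 probes with at least 5 spots, the SD of the ratio between spots was 0.18 there, against 0.05 in serum-free medium and 0.06 with OSI906. For the Cy5 channel, U87WT, it was 0.24 there, against 0.12 and 0.14. Without normalization between arrays, FOSL1 alone passed the limit for OSI906 against serum-free medium in U87WT, and the calls for OSI906 against IGF1 in U87WT were the same 4 genes.

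**Figure D3:**
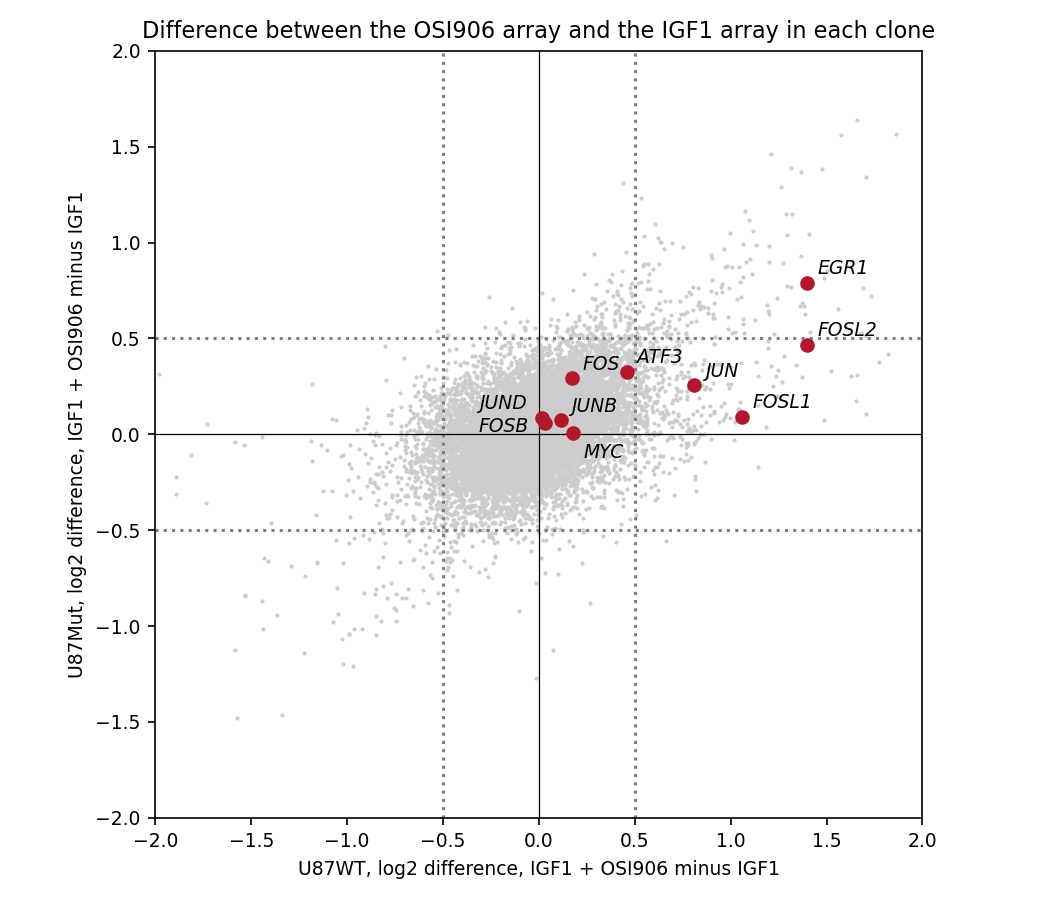
Log2 difference between the array with IGF1 and OSI906 and the array with IGF1 in U87WT (horizontal axis) and in U87Mut (vertical axis), with grey points for the bright named genes, 11 of 15343 of them outside the range, red points for the 10 members and dotted lines at the limits. EGR1 lies at 1.40 and 0.79, FOSL2 at 1.40 and 0.47, FOSL1 at 1.06 and 0.09, and JUN at 0.81 and 0.26.

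Across the 6 channel values, each gene centred on its own mean, the genes nearest to JUN outside the set were ZNF2, SNORA18 and COL4A2-AS1, with root mean square differences of 0.05, 0.06 and 0.06 among 7949 candidates. Candidates outside the set had to vary by at least a set share of the spread of JUN, while the members did not. Among the members the difference from JUN was smallest for JUNB, 0.23, and largest for MYC, 0.64. JUNB was dim and varied little, so its small difference does not show that it followed JUN. With 6 values from 3 arrays, many genes lie close together, and the likeness is given as a description.

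MYC (chromosome 8, bases 127735434 to 127742951) was higher in U87Mut on all 3 arrays, and no response of either clone to treatment passed the limit. The array holds 10 spots of its main probe, and their log2 ratio of U87WT over U87Mut was -1.27 ± 0.03 in serum-free medium, -1.26 ± 0.04 with IGF1 and -1.09 ± 0.04 with OSI906 (SD over 10 spots of 1 array, which covers the error within an array only). All 30 spot ratios lay between -1.32 and -1.03. The normalized log2 brightness was 9.64, 9.55 and 9.73 in U87WT and 10.91, 10.81 and 10.82 in U87Mut, so that U87Mut was 2.41-fold, 2.40-fold and 2.13-fold brighter. The limma mean was -1.21 (SE 0.05, adjusted p = 0.00319). With dyes scaled by medians in place of loess the ratios were -1.54, -0.83 and -1.02. In the main processing its responses to treatment lay between -0.10 and 0.18 in both clones, but they depended on the normalization. The response of U87WT to IGF1 was 0.26 with dyes scaled by medians and -0.32 without normalization between arrays. The raw brightness was 824, 813.75 and 777.25 in U87WT and 2150.5, 1330.25 and 1602.25 in U87Mut. A second MYC probe, for NM_001354870, was not well above background in any channel and adds nothing.

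Of the 9 bright genes among 10 listed in the MAX network, limma called MXD4 higher in U87WT and MXD1 and MYCL lower, MYCL at -0.41, -0.89 and -0.50. These are 1 of 9 higher and 2 of 9 lower, beside 11.0% and 10.7% of all genes. MXD4, an antagonist of MYC, had ratios of 0.62, 0.83 and 0.72, and MXD1, another antagonist, had -0.53, -0.67 and -0.57. Each kept its direction in all 8 processing settings but was past the limit on all arrays in 5 of them. With the deposited ratios MXD4 was at 0.20 and MXD1 at -0.44 on the IGF1 array. MAX itself was at -0.12, -0.04 and -0.20. The list median over the mean ratios was -0.02, beside -0.00 over all genes.

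In the main processing the listed targets of MYC had mean ratios below 0, as MYC did. The list was chosen with earlier results of these data known, so its counts are no independent evidence. MYC activity was not measured, and a link between MYC and these genes was not tested. Of 12 listed targets, all bright, limma called 8 lower in U87WT and none higher, beside 10.7% and 11.0% of all genes, and all 12 had a mean ratio below 0. The median of the list was -0.34, -0.27 and -0.35 on the 3 arrays. ODC1, the first enzyme of polyamine synthesis, was the lowest at -1.29, -1.60 and -1.93, and NCL, the nucleolar protein nucleolin, was at -0.77, -0.68 and -0.92. The called genes also held DKC1, FBL, NME1, NOP16, PA2G4 and SRM, of which DKC1, FBL and NOP16 serve ribosome production, and the others, CAD, CDK4, NOP56 and NPM1, were not called. With dyes scaled by medians in place of loess, which moved the median of all genes to -0.17, 0.30 and 0.05, the list stood at -0.58, 0.21 and -0.06, and 9 of 12 means were below 0 with none called. Under the other background corrections and signals all 12 means were below 0, and limma called 0 to 7 of them lower. Relative to all genes the list stayed lower on each array. Responses of the 12 targets to treatment did not pass the limit in either clone.

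**Figure D4:**
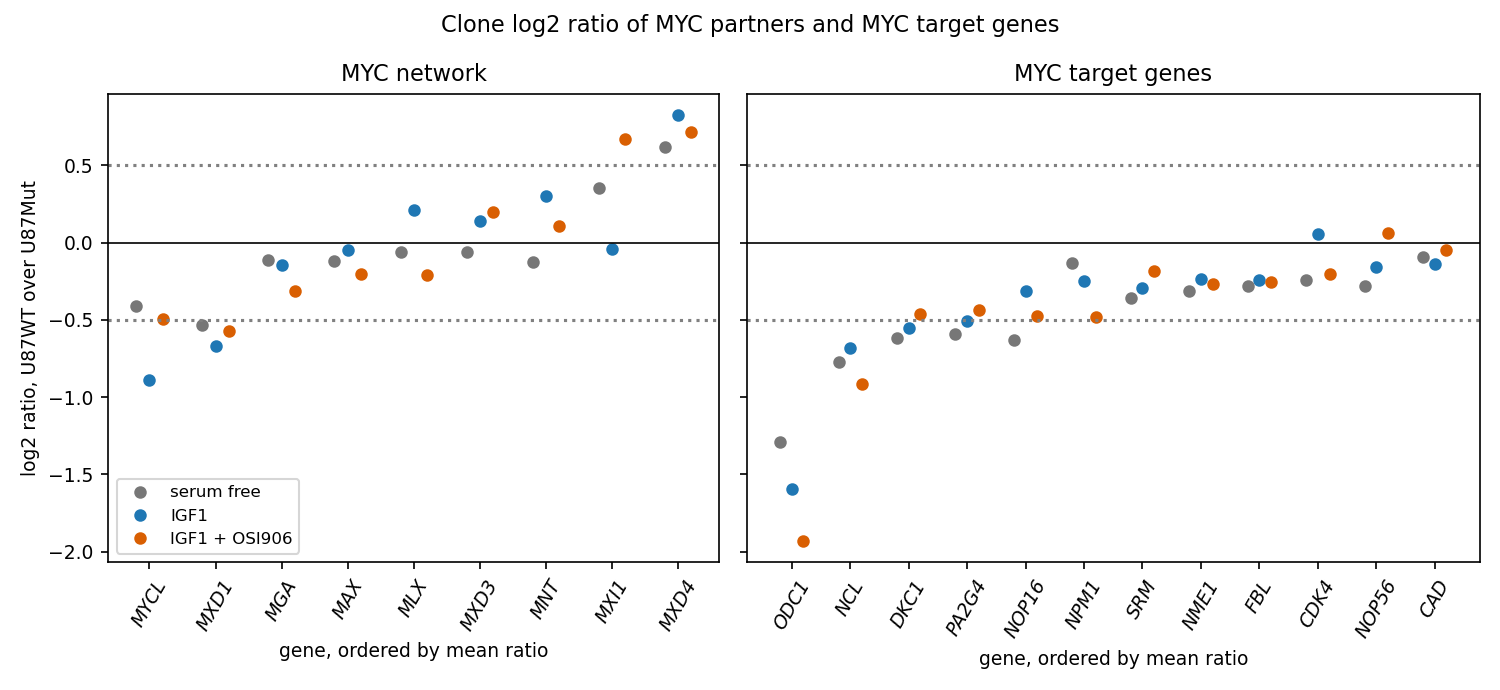
Log2 ratio of U87WT over U87Mut (vertical axis) of the 9 bright genes of the MAX network (left) and the 12 MYC target genes (right), 1 point per array colored by condition, ordered by their mean, with dotted lines at 0.5 and -0.5. The targets run from ODC1 at a mean of -1.60 to CAD at -0.09, and all 12 means are below 0.

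The wider list of AP-1 partners and related bZIP factors, not all of which pair with JUN or FOS, held 17 bright genes of 20 listed. Limma called ATF7 and CREB5 lower in U87WT, 2 of 17 beside 10.7% of all genes, and the list median of the mean ratios was -0.08. ATF7, a relative of ATF2, had ratios of -0.51, -0.63 and -0.56, and CREB5 had a mean of -0.22.

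Other early response genes numbered 26 bright of 30 listed, of which limma called 1, EGR2 at a mean of 0.42, higher in U87WT and 4 lower, beside 11.0% and 10.7% of all genes, with a list median of -0.03. The lower genes past the limit on all 3 arrays were GADD45A, a DNA damage response gene, at -0.87, -1.17 and -1.02, and the Krüppel-like factors KLF4, at -1.24, -1.10 and -0.63, and KLF2, at a mean of -0.82. IER2 was the other, at a mean of -0.25. EGR3 and NR4A1 were not well above background, and EGR4 and ZFP36 had no named probe. The feedback genes of the MAP kinase pathway, phosphatases and sprouty proteins, had 1 call higher, DUSP8 at a mean of 0.51, and 3 lower, DUSP1, ETV4 and ETV5 at -0.27, -0.43 and -0.59, among 14 bright of 16 listed, beside the same shares of all genes. Kinases and ternary complex factors had MRTFB higher, at a mean of 0.55, and MAP2K1 lower, at -0.60, among 17 of 18, beside those shares. The EGR1 corepressors NAB1 and NAB2 were not called.

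Among 14 bright of 15 listed target genes of AP-1, limma called 2 higher and 2 lower in U87WT, beside 11.0% and 10.7% of all genes, with a list median of -0.10. The higher genes were the proteases PLAU, at 0.80, 0.99 and 0.56, and MMP3, at 0.88, 0.63 and 0.59. With the deposited ratios MMP3 was at 0.23 on the IGF1 array. The lower genes were CCND1, cyclin D1, at -1.39, -1.18 and -1.17, and HMOX1, heme oxygenase, at -0.47, -0.77 and -0.56. With OSI906 against IGF1, 3 of the 14 were higher past the limit in U87WT, beside 3.73% of all genes, and 1 in U87Mut, beside 2.07%. Singled out after their values were seen, these were CXCL8 (1.39), IL6 (1.37) and VEGFA (1.14) in U87WT and CXCL8 (0.63) in U87Mut. The mean clone ratio of these genes was not called.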

How the data were processed

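Gene expression was measured on 3 Agilent SurePrint G3 Human v3 2-colour arrays, 1 per condition. The authors deposited intensity values read out with Agilent Feature Extraction 12.0.3.1: the median brightness of each spot and its local background in each dye, not normalized. A second deposited table holds the authors' log2 ratios, for which normexp on all spots with an offset of 20 and loess gave the same value within 1e-04 for 58341 of 58341 probes on each array. The correlation of the deposited ratios with those used here was 0.987 in serum-free medium, 0.597 with IGF1 and 0.975 with OSI906. With R 4.3.3 and limma 3.58.1, normexp (offset 50) was fitted without spots marked as not uniform, followed by loess, with weight 0 for control spots and outliers, and Aquantile. On the IGF1 array the fitted background SD of Cy5 was 1.32 without the marked spots and 701 with all spots, so its values depend on this choice. Spots of a probe were averaged over 58201 probes, and 34892 of 36770 RefSeq probes were named by transcript (GRCh38.p14). A gene is given by its brightest probe. Values past 0.5 on the log2 scale were called by size, and limma (lmFit and eBayes) tested the mean ratio over 3 arrays. Steps were tested on simulated data. The columns of the supplement name 8 h, and the labels 24 h, the time used here. The paper's methods give 1 h with OSI906 before IGF1, while the labels' treatment text gives a longer preincubation, and 1 label names another dose than the 0.5 µM used here. The members and lists were chosen with earlier results of these data known. From each list, the genes named are the 3 highest and lowest past 0.5 on all arrays, or in both clones with IGF1, and every other list gene named was chosen after its values were seen. The alternatives were other background corrections and offsets, the scanner software's processed signals, median in place of loess, no or quantile normalization between arrays, the deposited table, all probes of a gene, no filter on dim probes and leaving out each array. An offset of 0 was added after seeing the data. One item of a list is not reported here. The number of arrays limits the precision.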

Additional observations from a re-analysis of the deposited data

Results flagged for a closer look

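FOSL2 moved in opposite directions in the clones with IGF1 against serum-free medium, -0.93 in U87WT and 0.29 in U87Mut, a difference of -1.22. This difference between the responses was not tested, since each value rests on 1 array per condition and on 1 probe with 1 spot per array. Under the alternatives the value in U87WT lay between -1.15 and -0.61. The value in U87Mut was 0.07 without normalization between arrays and -0.03 with dyes scaled by medians in place of loess, where the directions were no longer opposite.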

How the results depend on the processing

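Of 780 values of single genes under the alternatives, 660 moved by less than the spread between arrays, 120 moved by more, and 0 of the called values changed sign. Some of the 780 could not move, since genes with 1 probe keep their value in the mean over all probes. The ratios on the OSI906 array were the same with all spots in the background fit. The spread comes from the serum-free and OSI906 arrays and leaves out the IGF1 array, so these counts can overstate how stable the values are. Counts of genes past the limit that moved by over 1.5 times, or from 0, were these, and smaller shifts of a count are not listed. The deposited ratios gave 5 on the IGF1 array in place of 3, adding JUN and FOSL2. For OSI906 against serum-free medium in U87WT (3), median scaling gave 5 and no normalization between arrays 1; in U87Mut (2), these and the mean over all probes gave 1 each. For U87Mut with IGF1 (0), no background correction, the processed signals and an offset of 0, added after seeing the data, gave 1, FOS, and median scaling gave 1, EGR1. For OSI906 against IGF1 in U87Mut (1), those 4 settings gave 2. Limma called 0 members with the processed signals and with median scaling, where it called 0 of 58174 probes (9947 and 5125 at an unadjusted p under 0.05; MYC 0.000831 and 0.00245, ATF3 0.00196 and 0.000824), and 1, MYC, with an offset of 0. Leaving out 1 array gave 1 to 4 members: without the IGF1 array FOSL2, ATF3, EGR1 and MYC, without the OSI906 array MYC alone. Over all probes limma called 4905, against 669 with all spots in the background fit, 785 with the deposited ratios, 452 with an offset of 0, and 232 to 6029 without 1 array. The cause was not tested. No paired analysis between conditions was possible because each condition has 1 array and the groups share only 1 replicate number. The clones are paired within each array, and limma tested that ratio. Brightness near background limits FOS, FOSB and JUNB.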
